A study of Mus musculus with 8 samples.

Results

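The Cfap genes encode cilia and flagella associated proteins, most of them parts of the axoneme, the microtubule core of motile cilia and of the sperm tail. The axoneme has a ring of doublet microtubules around a central pair. Dynein arms on the doublets slide neighbouring doublets past each other, radial spokes link the doublets to the central pair, the central pair carries its own projections, and a further set of proteins lines the inside of the doublets. Round spermatids are the early haploid cells in which the tail begins to grow. Loss of several Cfap genes, among them Cfap43, Cfap44, Cfap65 and Cfap69, leaves mice or men with short or malformed sperm tails.

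The members were the genes whose symbol on the array begins with Cfap and a digit, read on transcript clusters (the probes of a gene summarised to 1 value) that carry a single symbol. There were 31 such genes on 40 clusters, of 19938 genes and 35512 clusters measured. Where a gene had several, its cluster was chosen by the highest mean intensity over the 8 arrays, and differences between genotypes had no part in that choice. Apart from the single-symbol rule, no filter was applied, so no Cfap gene was lost to any other. A further cluster carried Cfap43 together with another symbol and was not used, and Cfap73, Cfap97d2 and Cfap99 had no cluster with a single symbol.

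The arrays measured total RNA of round spermatids purified on an albumin gradient from testes of adult C57BL/6 mice of 4 genotypes at Miwi (Piwil1), the gene of a PIWI protein that binds piRNAs in germ cells. In MIWI -/- both alleles were null, and in MIWI -/KI a knock-in allele stood opposite a null one. In MIWI +/KI the knock-in, and in MIWI +/- the null allele, stood opposite a wild-type one, so every animal carried at least 1 altered allele and there was no wild-type group. The labels do not say what the knock-in allele changes, and the title of the study is about the catalytic activity of MIWI. Each genotype had 2 arrays, called biological replicates. Neither the number of animals behind an array nor an exact age is known here, so p-values reflect only how much these preparations varied.

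Arrays of the same genotype correlated with r between 0.970 and 0.995 over all clusters, while r between genotypes was 0.960 to 0.988. Each of the 4 arrays without a wild-type allele correlated better with an array of another genotype than with its own replicate. MIWI -/KI replicate 1 had 0.988 and 0.987 with the MIWI -/- arrays, against 0.970. MIWI -/- replicate 2 had 0.985 and 0.986 with the MIWI +/KI arrays, against 0.984. The MIWI +/KI arrays (0.995) and the MIWI +/- arrays (0.989) correlated best with their own replicate. The median intensity of an array lay between 66.6 and 71.8, and each genotype mean rests on 2 arrays. Piwil1 differed by -1.14 on the log2 scale between MIWI -/- and MIWI +/- (SE 0.17, adjusted p = 0.00771 by limma), but where its probes lie relative to the null allele's lesion is not given, so this does not check the label. Marker lists are given here for the 4 arrays without against the 4 arrays with a wild-type allele, where a gene is said to rise or fall at an adjusted p under 0.05 in limma and 4.34% of all genes rose and 3.93% fell. All 16 round spermatid markers were measured, with mean intensities of 451 or more, and the sum of their intensities lay between 20671 and 23210 in the 4 arrays without a wild-type allele and between 20574 and 21710 in the 4 arrays with one. Of the 16, the kinase gene Tssk2 fell by 0.83 (adjusted p = 0.0111), at 618 to 924 without against 1151 to 1625 with a wild-type allele, and 6 had an unadjusted p under 0.05. Tssk1 also did not overlap, at 1449 to 1688 against 1807 to 2004, with an adjusted p of 0.121. Spata16 did not overlap in the other direction, at 1665 to 2020 without against 1319 to 1575 with a wild-type allele. The sum over 13 genes typical of elongating spermatids, the later stage, did not overlap. It lay between 17639 and 20756 without a wild-type allele, against 38312 to 53697 with one, and all 13 genes fell. Of 17 Sertoli cell markers, 4 fell, with sums of 1586 to 2113 against 2276 to 3093. By limma 10 of them had an unadjusted p under 0.05, and 7 had mean intensities under 100. The 18 spermatocyte markers had sums of 8218 to 10632 without and 8531 to 10021 with a wild-type allele, and 1 of them fell. The median deviation of these markers from their means over all arrays was 0.42 on the log2 scale in MIWI -/KI replicate 2. Multiciliated cells of the ducts that leave the testis also transcribe Cfap genes. The 11 markers of duct epithelium had sums of 885 to 1013 without and 925 to 990 with a wild-type allele, 9 of them had mean intensities under 100, and by limma 0 passed the threshold, with 0 at an unadjusted p under 0.05. Of the other marker lists, 4 of 11 blood and macrophage genes fell, and 1 of 15 spermatogonia genes and 1 of 14 peritubular, vascular and stromal genes rose. In these 3 lists 6, 3 and 1 genes had an unadjusted p under 0.05 by limma, and 8, 5 and 7 had mean intensities under 100. So did 5 of the 8 Leydig cell genes. By limma 0 of 8 Leydig cell genes passed, and 5 had an unadjusted p under 0.05, each of them higher without a wild-type allele. Their sums lay between 664 and 1300 without and between 529 and 732 with a wild-type allele. The part of these shifts in the results below was not tested, and in RNA of a cell fraction, fewer cells of a type cannot be told apart from less RNA per cell.

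Every Cfap gene lay in the upper part of the array's intensity range, since the dimmest, Cfap20dc, was brighter than 64.1% of all genes. Mean intensities over the 8 arrays lay between 156 and 3097, with a median of 940. Intensities of different clusters depend on their probes, so the order of genes by intensity is not an order of transcript number. At the top stood Cfap43, which tethers inner dynein arms to the doublet. Its intensities were 3029 and 3233 in MIWI -/- replicates 1 and 2, 3250 and 3929 in MIWI -/KI, 2943 and 2895 in MIWI +/KI, and 2686 and 2813 in MIWI +/-. Cfap206, a protein at the base of a radial spoke, had 3451 and 3246 in MIWI -/-, 3184 and 3280 in MIWI -/KI, 2943 and 2893 in MIWI +/KI, and 2971 and 2741 in MIWI +/-. In both genes each array without a wild-type allele was higher than each array with one, on the cluster used. This did not hold on every cluster of Cfap43. On another cluster, MIWI -/KI replicate 1 had 1326, below all arrays with a wild-type allele (1379 to 1477). On a further cluster that array had 1474, against 1496 to 1576. Cfap70, the next brightest, is given with the central apparatus genes. At the bottom stood Cfap47, Cfap100 and Cfap20dc. Cfap47, an X-linked gene of the central apparatus, had 283 and 262 in MIWI -/-, 236 and 388 in MIWI -/KI, 212 and 243 in MIWI +/KI, and 207 and 161 in MIWI +/-. Cfap100, a protein that helps to hold inner dynein arms in Chlamydomonas, had 214 and 269 in MIWI -/-, 280 and 245 in MIWI -/KI, 255 and 237 in MIWI +/KI, and 226 and 242 in MIWI +/-. Cfap20dc had 151 and 183 in MIWI -/-, 161 and 193 in MIWI -/KI, 141 and 160 in MIWI +/KI, and 126 and 130 in MIWI +/-. The groups without and with a wild-type allele overlapped in all 3 of these dim genes.

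Of the 31 genes, 28 had their highest array among the 4 without a wild-type allele and 25 had their lowest array among the 4 with one. MIWI -/KI replicate 2 alone held the highest value of 12 genes, MIWI -/- replicate 2 of 8, MIWI -/- replicate 1 of 6, and MIWI -/KI replicate 1 of 2. The remaining 3 genes were highest in a MIWI +/- array and none in a MIWI +/KI array. In 17 genes the MIWI +/KI mean lay between the MIWI +/- mean and the means of both genotypes without a wild-type allele. The shares of all genes with these patterns are not given, so these counts describe the 31 genes alone. The summed intensity of all 31 lay between 34998 and 40625 in the arrays without a wild-type allele, against 29893 to 32582 in those with one, with no overlap.

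**Figure D1:**
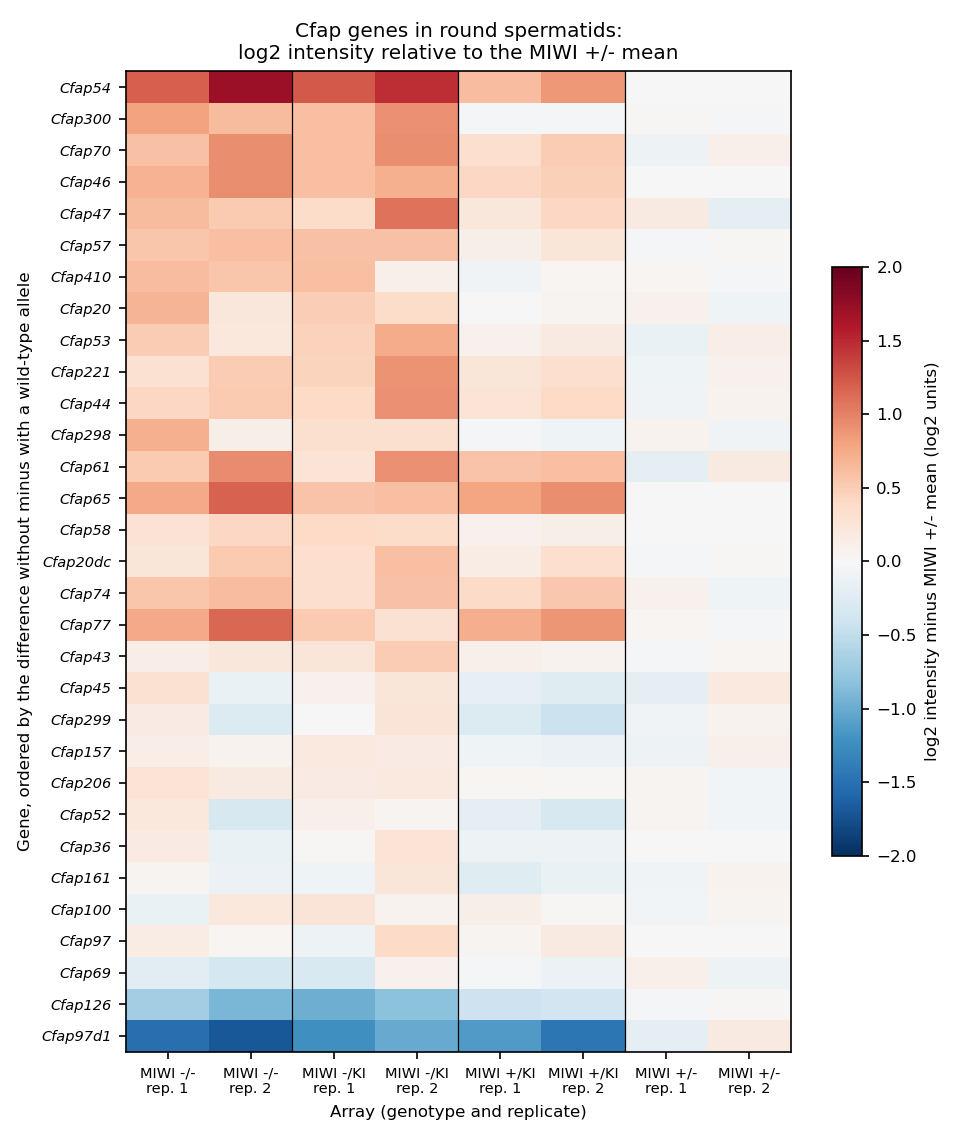
Log2 intensity of the 31 Cfap genes (rows, ordered by the difference without minus with a wild-type allele) in the 8 arrays (columns), relative to the mean of the MIWI +/- arrays, with red for higher and blue for lower. Cfap54 at the top and Cfap97d1 at the bottom stand out, and MIWI -/KI replicate 2 holds the highest value of 12 genes.

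Genes were tested in 1 linear model (limma) on log2 intensity, and a gene is said to have risen or fallen where its adjusted p, taken over all 35512 clusters, was under 0.05. MIWI -/- against MIWI +/- asks what changes when the wild-type allele beside a null allele is replaced by a second null allele. Here 7 Cfap genes rose and 2 fell, of 31, where 2.61% of all genes rose and 3.53% fell. Among the 7162 genes at least as bright as the dimmest Cfap gene, a comparison chosen after seeing the data, 5.96% rose and 7.47% fell. The median difference over the 31 genes was 0.38 on the log2 scale, against 0.01 over all genes and 0.11 over the bright ones. MIWI -/KI against MIWI +/- asks the same with a knock-in in place of the second null allele. In it 5 Cfap genes rose and 2 fell, where 3.12% of all genes rose and 3.12% fell, and 6.21% and 6.79% of the bright ones. Their median was again 0.38, against -0.00 over all genes. Both comparisons use the same MIWI +/- arrays, so their likeness is no independent repeat. Leaving out 1 array moved the first count of 9 called genes to 2 without MIWI +/- replicate 1 or 2, when 2.07% and 1.88% of all genes passed. It was 3 without MIWI -/- replicate 2 (2.92% of all genes) and 3 when the first or the second MIWI +/KI array was left out (3.30% and 3.29%). The second count of 7 was 0 without MIWI +/- replicate 1 or 2 (1.82% and 1.73% of all genes), 3 without MIWI -/KI replicate 2 (4.65%), 3 when the first or the second MIWI +/KI array was left out (3.43% and 3.41%), and 12 without MIWI -/KI replicate 1 (13.9%).

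Averaged over both backgrounds, the 4 arrays without a wild-type allele were set against the 4 arrays with one. Cfap54, Cfap300, Cfap70, Cfap46 and Cfap57 rose, Cfap126 and Cfap97d1 fell, and 24 genes did not pass. Over all genes 4.34% rose and 3.93% fell, and among the bright genes 8.66% and 7.96%. The median over the 31 genes was 0.30, against -0.01 over all genes and 0.10 over the bright ones. Of the 31 differences, 28 were above 0, a count for which the share of all genes is not given. All 4 arrays without a wild-type allele were above all 4 with one in 13 Cfap genes and below them in 1. Of all genes 9.39%, and of the bright ones 17.6%, stood higher without overlap, and 6.54% and 9.22% lower. Of the 7 genes called in this average, only Cfap300 also passed in MIWI -/KI against MIWI +/KI. There Cfap97d1 stood at 0.17, against -1.60 in MIWI -/- against MIWI +/-, so its averaged fall was not shared beside the knock-in. Cfap46 stood there at 0.21, Cfap70 at 0.34, Cfap57 at 0.41, Cfap54 at 0.61 and Cfap126 at -0.49. The count of 7 called genes, beside 8.27% of all genes, was 2 without MIWI +/- replicate 2 (3.89% of all genes), 2 when the first or the second MIWI +/KI array was left out (3.29% and 3.58%), 4 without MIWI +/- replicate 1 (4.01%), and 12 without MIWI -/KI replicate 1 (16.5%).

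**Figure D2:**
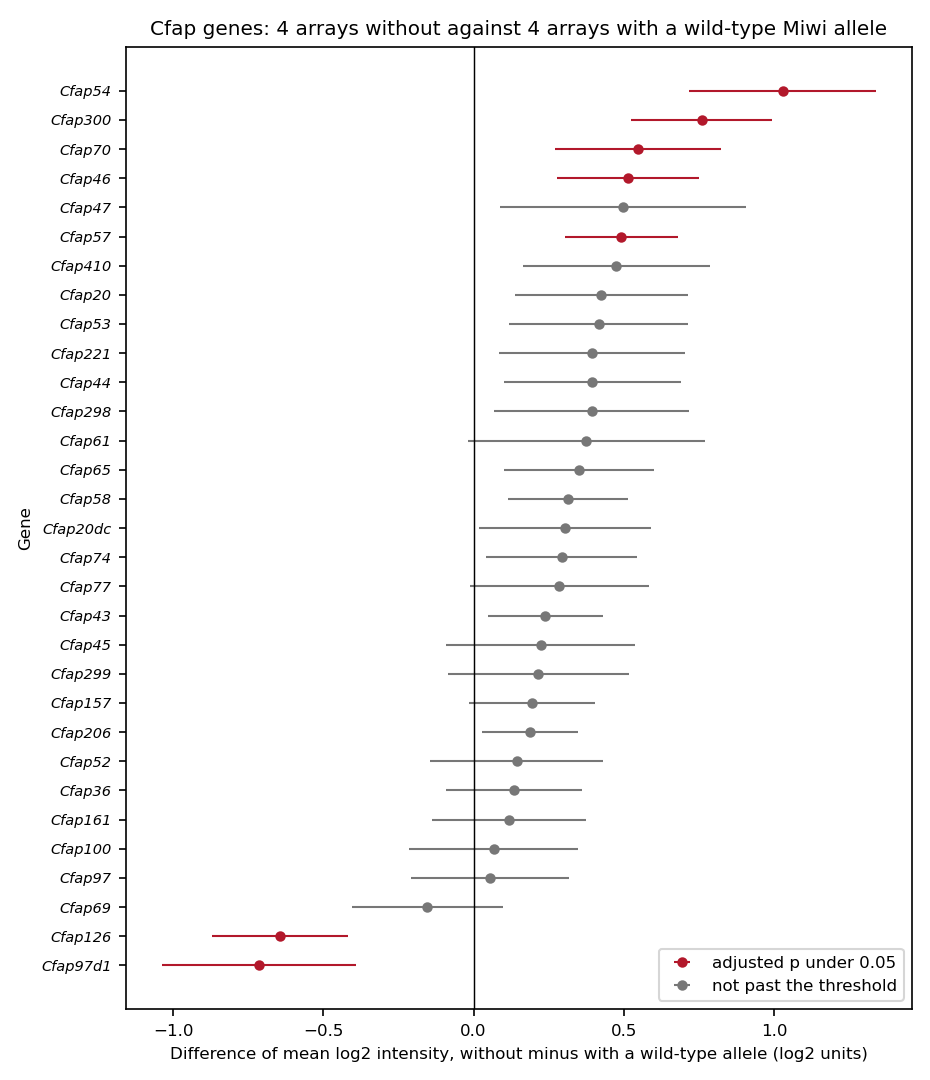
Difference of mean log2 intensity (points) with its 95% confidence interval from limma (lines) for each Cfap gene, 4 arrays without minus 4 arrays with a wild-type allele. The 7 genes past the threshold are in red, from Cfap54 at 1.03 to Cfap97d1 at -0.72, and 28 of 31 points lie above 0.

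Among the 8 members of the central apparatus, 4 rose in MIWI -/- against MIWI +/-, with a median of 0.67, and 3 when the 4 arrays lacking a wild-type allele were set against the others, with a median of 0.45. Cfap54 builds a central pair projection whose loss in mice impairs ciliary motility and sperm tails. It had 1633 and 2329 in MIWI -/-, 1667 and 1976 in MIWI -/KI, 1090 and 1305 in MIWI +/KI, and 708 and 717 in MIWI +/-. All 4 arrays without a wild-type allele were above the other 4, and both MIWI +/KI arrays were above both MIWI +/- arrays. The gene rose by 1.45 on the log2 scale in MIWI -/- against MIWI +/- (SE 0.19, adjusted p = 0.00455), by 1.35 in MIWI -/KI against MIWI +/- (adjusted p = 0.00677) and by 1.03 without against with a wild-type allele (adjusted p = 0.00351). Of the alternatives run, these calls held in 19 of 19, 17 of 19 and 18 of 18.

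Cfap46, a protein of the same projection in Chlamydomonas, had 590 and 693 in MIWI -/-, 551 and 595 in MIWI -/KI, 484 and 505 in MIWI +/KI, and 364 and 363 in MIWI +/-. Its groups were ordered like those of Cfap54 and did not overlap without against with a wild-type allele on this cluster. On the other cluster of Cfap46 they did, with 438 in MIWI -/KI replicate 1 and 448 in MIWI +/KI replicate 2. On the cluster used, Cfap46 rose by 0.82 in MIWI -/- (SE 0.15, adjusted p = 0.0186) and by 0.66 in MIWI -/KI against MIWI +/- (adjusted p = 0.0438), calls that held in 13 and 10 of 19 alternatives. Its call in the average over both backgrounds held in 13 of 18. Cfap70, a gene needed for normal sperm tails, had 2412 and 3078 in MIWI -/-, 2438 and 3081 in MIWI -/KI, 2042 and 2300 in MIWI +/KI, and 1511 and 1725 in MIWI +/-. All 4 arrays without a wild-type allele were above the other 4, the nearest being 2412 against 2300. It rose by 0.76 in MIWI -/- against MIWI +/- (SE 0.17, adjusted p = 0.0465) and by 0.55 without against with a wild-type allele (adjusted p = 0.0348). The first of these calls held in 10 of 19 alternatives, with an adjusted p of up to 0.280, and the second in 12 of 18. It also rose in MIWI -/KI against MIWI +/-, a call that held in 9 of 19.

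Cfap65, whose loss gives short and coiled sperm tails, followed another order. It had 1721 and 2301 in MIWI -/-, 1511 and 1534 in MIWI -/KI, 1752 and 1924 in MIWI +/KI, and 1020 and 1011 in MIWI +/-. The MIWI +/- arrays alone were low, and MIWI +/KI stood above MIWI -/KI. It rose by 0.97 in MIWI -/- against MIWI +/- (SE 0.15, adjusted p = 0.0109, called in 17 of 19 alternatives), and stood at 0.58 in MIWI -/KI against MIWI +/- (adjusted p = 0.0812) and at 0.35 without against with a wild-type allele (adjusted p = 0.115). Of the other central apparatus members, Cfap47 stood at 0.50, Cfap221 at 0.40, Cfap74 at 0.29 and Cfap69 at -0.15 between arrays lacking and carrying a wild-type allele, and none of them passed in any comparison.

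**Figure D3:**
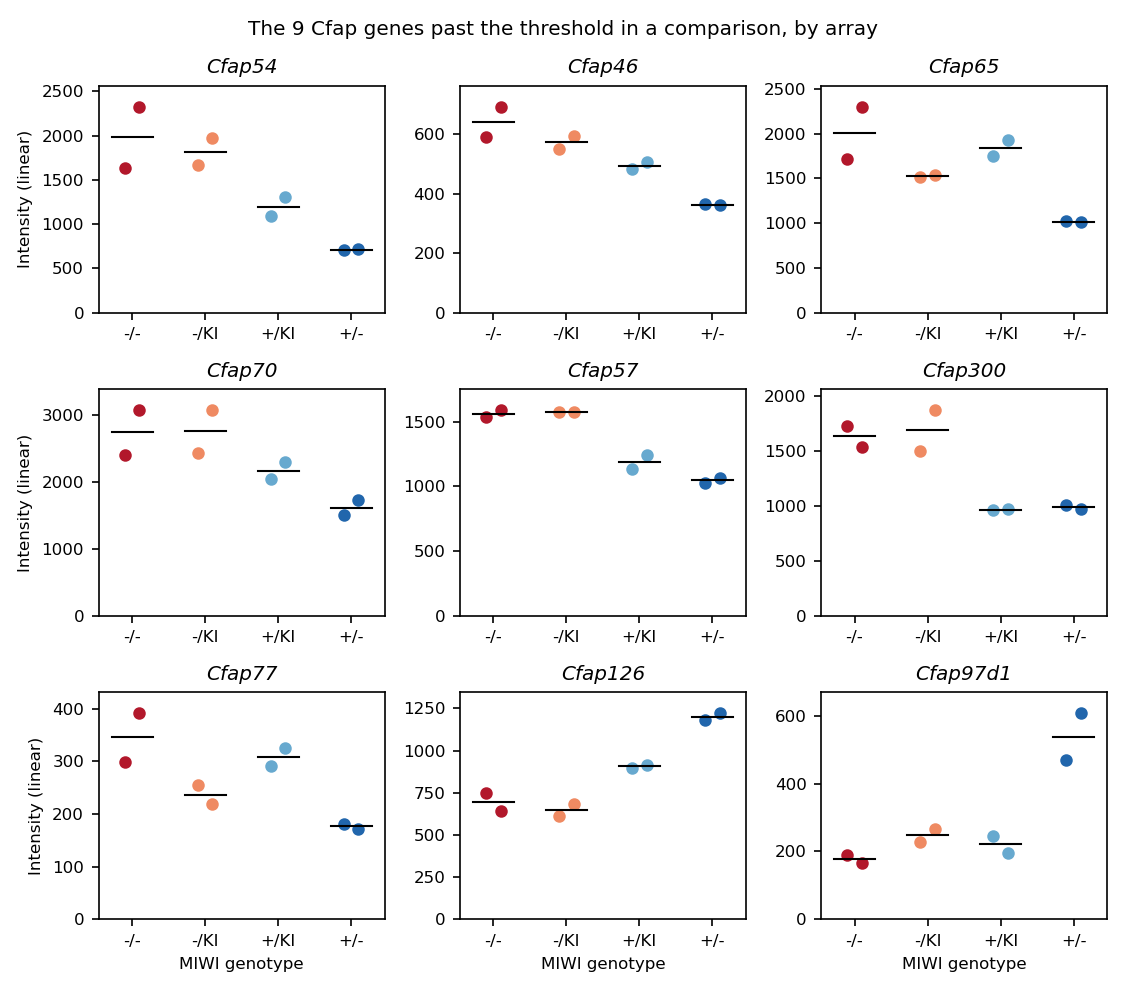
Intensity on a linear scale of the 9 Cfap genes past the threshold in at least 1 comparison, with 1 point per array and a line at the mean of the 2 arrays of each genotype. In Cfap54, Cfap46 and Cfap70 the MIWI +/KI mean lies between those of the genotypes without a wild-type allele and MIWI +/-, Cfap300 splits by the wild-type allele, Cfap65 and Cfap77 are lowest in MIWI +/-, and Cfap126 and Cfap97d1 are highest there.

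The 6 members at the radial spokes, tethers and inner dynein arms had 1 rise and a median of 0.35 in MIWI -/- against MIWI +/-, and 1 rise and a median of 0.31 without against with a wild-type allele. Cfap57, which helps to assemble an inner dynein arm, had 1535 and 1592 in MIWI -/-, 1572 and 1574 in MIWI -/KI, 1138 and 1240 in MIWI +/KI, and 1027 and 1065 in MIWI +/-. The genotypes without a wild-type allele lay together, above both others. Cfap57 rose by 0.58 in MIWI -/- (SE 0.12, adjusted p = 0.0296) and by 0.59 in MIWI -/KI against MIWI +/- (adjusted p = 0.0274), and by 0.49 without against with a wild-type allele (adjusted p = 0.0106). These calls held in 11 of 19, 12 of 19 and 14 of 18 alternatives. Cfap44, the partner of Cfap43 in the tether, stood at 0.39, Cfap61, a spoke protein, at 0.38, Cfap43 at 0.24, Cfap206 at 0.19 and Cfap100 at 0.07, and none passed.

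Of the 7 members that line the inside of the doublets, 1 rose and 1 fell in MIWI -/- against MIWI +/-, with a median of 0.08. When the 4 arrays lacking a wild-type allele were set against the others, 1 fell and the median was 0.22. Cfap77 had 300 and 392 in MIWI -/-, 254 and 219 in MIWI -/KI, 292 and 327 in MIWI +/KI, and 181 and 172 in MIWI +/-. As for Cfap65, MIWI +/- was the low genotype and MIWI +/KI stood above MIWI -/KI. Cfap77 rose by 0.96 in MIWI -/- against MIWI +/- (SE 0.18, adjusted p = 0.0247, called in 13 of 19 alternatives) and stood at 0.28 without against with a wild-type allele (adjusted p = 0.306). Cfap126, also called Flattop and known from basal body positioning in mouse multiciliated cells, had 745 and 639 in MIWI -/-, 611 and 682 in MIWI -/KI, 897 and 917 in MIWI +/KI, and 1179 and 1222 in MIWI +/-. Every array without a wild-type allele was below every array with one, and it was the only Cfap gene of which this held. It fell by 0.80 in MIWI -/- (SE 0.14, adjusted p = 0.0168) and by 0.90 in MIWI -/KI against MIWI +/- (adjusted p = 0.0101), and by 0.64 without against with a wild-type allele (adjusted p = 0.00722), calls that held in 14 of 19, 16 of 19 and 15 of 18 alternatives. Cfap20 stood at 0.43, Cfap53 at 0.42, Cfap45 at 0.22, Cfap52 at 0.14 and Cfap161 at 0.12 in that last comparison, and none passed.

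The remaining group held 9 genes of dynein arm assembly, of the ciliary base and of other places, with 1 rise and 1 fall in both of these comparisons and medians of 0.10 and 0.22. Cfap300, a cytoplasmic protein needed to assemble dynein arms, had 1730 and 1535 in MIWI -/-, 1500 and 1873 in MIWI -/KI, 959 and 968 in MIWI +/KI, and 1004 and 975 in MIWI +/-. The arrays fell into 2 levels by the presence of a wild-type allele, with no overlap. Cfap300 rose by 0.72 in MIWI -/- (SE 0.14, adjusted p = 0.0296) and by 0.76 in MIWI -/KI against MIWI +/- (adjusted p = 0.0234), and by 0.76 without against with a wild-type allele (adjusted p = 0.00383). These calls held in 11 of 19, 13 of 19 and 18 of 18 alternatives. Cfap97d1, which maintains the sperm axoneme in mice, had 188 and 166 in MIWI -/-, 228 and 267 in MIWI -/KI, 244 and 197 in MIWI +/KI, and 470 and 609 in MIWI +/-. The MIWI +/- arrays were the highest, and the arrays of the other 3 genotypes ran from 166 to 267. It fell by 1.60 in MIWI -/- (SE 0.20, adjusted p = 0.00335) and by 1.12 in MIWI -/KI against MIWI +/- (adjusted p = 0.0179), calls that held in 19 and 15 of 19 alternatives, and its call in the average over both backgrounds held in 14 of 18. In MIWI -/KI against MIWI -/- it stood at 0.48 (adjusted p = 0.998). In MIWI +/KI against MIWI +/- it stood at -1.29 (adjusted p = 0.0874). Cfap410 stood at 0.48 without against with a wild-type allele, Cfap298, another dynein assembly factor, at 0.39, Cfap58 at 0.31, Cfap299 at 0.22, Cfap157 at 0.20, Cfap36 at 0.13 and Cfap97 at 0.06, and none passed. Cfap20dc, to which no role was assigned, stood at 0.30.

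MIWI -/KI against MIWI +/KI sets the knock-in allele beside a null against the knock-in beside a wild-type allele. Cfap300 was the 1 member that passed, higher by 0.80 (SE 0.14, adjusted p = 0.0387), where 1.14% of all genes rose and 1.29% fell, and the median of the 31 genes was 0.29, against -0.03 over all genes. That call held in 9 of 19 alternatives, with an adjusted p of up to 0.325, and was lost without either MIWI +/- array, either MIWI +/KI array or MIWI -/KI replicate 2. Without MIWI -/KI replicate 1, 3 members passed, beside 13.4% of all genes. Cfap54 stood at 0.61 in this comparison (adjusted p = 0.171), Cfap299 at 0.49 and Cfap126 at -0.49. MIWI +/KI against MIWI +/- sets the knock-in against the null allele beside a wild-type one. By limma 0 members passed, where 0.0953% of all genes did. At an unadjusted p under 0.05 stood 9 of 31, and the share of all genes at that level is not given, so 0.0953% is no measure for it. The largest differences were -1.29 in Cfap97d1, 0.85 in Cfap65 (adjusted p = 0.111), 0.81 in Cfap77 (adjusted p = 0.163) and 0.74 in Cfap54 (adjusted p = 0.205). This count is set by the model: 6 members passed when the fit held only the MIWI +/KI and MIWI +/- arrays, where 7.39% of all genes passed, and 7 with array weights, where 7.79% did.

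MIWI -/KI against MIWI -/- compares the genotypes without a wild-type allele. By limma 0 members and 0 of all genes passed (0%). At an unadjusted p under 0.05 stood 3 of 31 members, with no share of all genes given at that level. The largest difference was 0.54 in size, in Cfap77, which was lower in MIWI -/KI. The 95% confidence intervals of all 31 members lay between -0.96 and 0.94. Each interval, taken alone, thus excluded a log2 change of 1 in size but not smaller ones. They were not widened for reading 31 at once, so the joint confidence is below 95%. Whether the difference made by the wild-type allele depends on the other allele was tested as a difference of differences, (MIWI -/KI minus MIWI +/KI) minus (MIWI -/- minus MIWI +/-). It passed for 0 members and 0 of all genes (0%) by limma, with an unadjusted p under 0.05 in 6 members, again without a share of all genes at that level. The smallest adjusted p was 0.0927, in Cfap97d1, with a value of 1.77.

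Of the 31 genes, 6 were read on more than 1 cluster, which allows a check within the arrays, although clusters of a gene share their RNA. Without against with a wild-type allele, both clusters of Cfap54 rose, by 0.97 and 1.03, and both of Cfap57, by 0.49 and 0.62. Those of Cfap46 stood at 0.51 each, with 1 past the threshold. The 5 clusters of Cfap43 stood between 0.17 and 0.24, those of Cfap61 at 0.34 and 0.38, and those of Cfap74 at 0.27 and 0.29, and none passed. These averages hide a difference between the clusters of Cfap74. On the cluster not used, MIWI -/KI (339 and 458) lay below MIWI +/KI (537 and 555), while MIWI -/- (477 and 662) lay above MIWI +/- (278 and 283). On the cluster used, MIWI -/KI (565 and 675) and MIWI +/KI (586 and 651) overlapped.

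**Figure D4:**
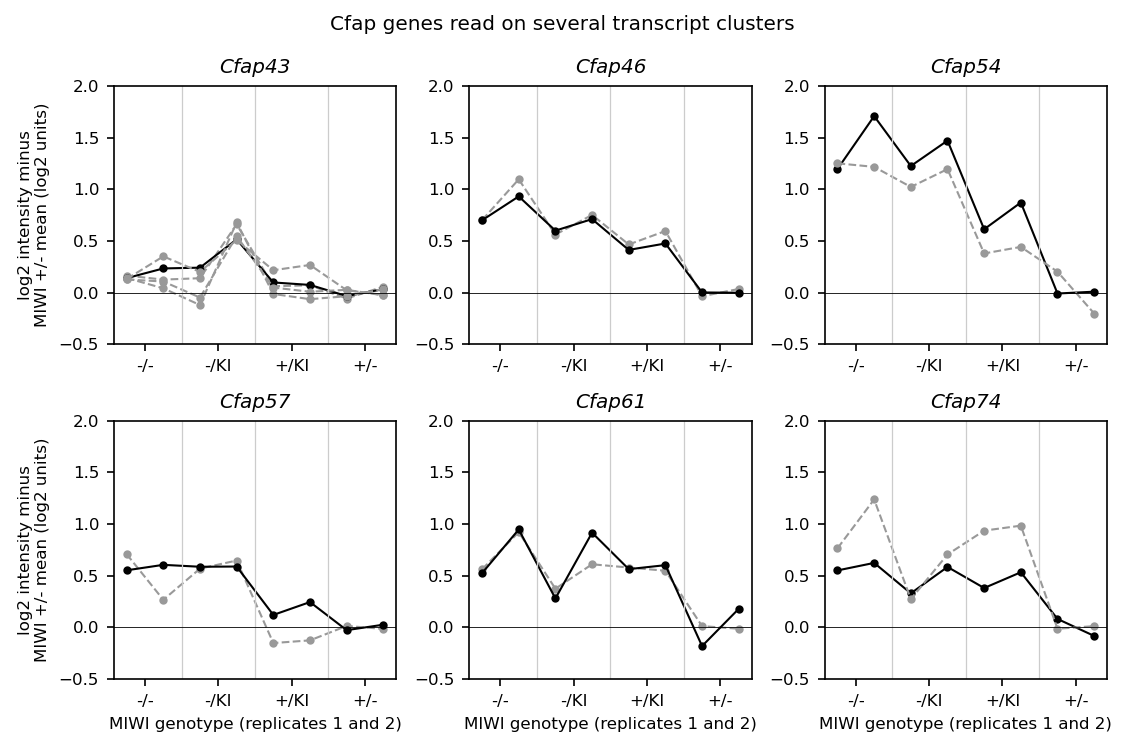
Log2 intensity minus the MIWI +/- mean in the 8 arrays for the 6 Cfap genes with several clusters, with the cluster used as a solid black line and the others dashed in grey. All 5 clusters of Cfap43 are highest in MIWI -/KI replicate 2. The clusters of Cfap74 part in MIWI +/KI and in MIWI -/- replicate 2, where the cluster not used lies further above its MIWI +/- mean.

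Other axoneme genes were read from lists by place in the axoneme, comparing the 4 arrays lacking a wild-type allele with the other 4 and with the same 4.34% and 3.93% of all genes as background. Of 21 axonemal dynein genes, 9 rose and 1 fell, with a median of 0.42. Dnah7c rose by 0.94 (SE 0.09, adjusted p = 0.000882), Dnah2, an inner arm heavy chain, by 0.75 and Dnah7b by 0.89. The 1 that fell, the light chain gene Tctex1d1 (by 0.87), is named because it was the only fall, chosen after its values were seen. Dnah7a, Dnah7b and Dnah7c are near-identical copies whose probes may read each other. Of 13 other central apparatus genes, 3 rose and none fell, Ccdc180 by 0.55, Spag6l by 0.39 and Mycbpap by 0.42. Of 10 radial spoke genes, Rsph1 rose by 0.50 and Morn3 fell by 0.75. Of 11 assembly factors of dynein arms, Pih1d2 rose by 0.63 and Ttc12 by 0.55. None of 12 genes of the nexin-dynein regulatory complex, which links neighbouring doublets, and none of 17 tektins and other inner proteins passed by limma, with medians of 0.12 and 0.21, and 4 genes of each list had an unadjusted p under 0.05. Of 18 transcription factors of ciliary or haploid genes, E2f5 rose by 0.53. Foxj1, the regulator of motile cilia, stood at -0.10, Rfx2, which drives ciliary genes in spermatids, at -0.20 and Crem, an activator of haploid genes, at 0.06, and their median was -0.11.

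**Figure D5:**
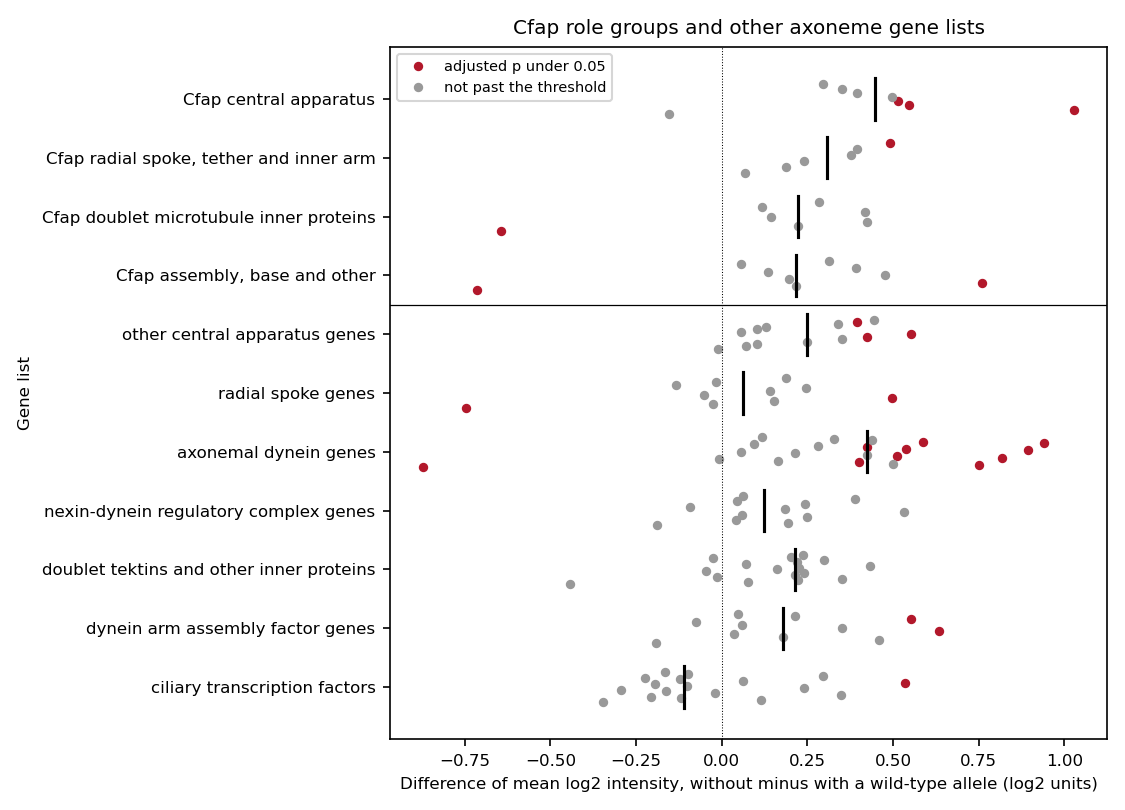
Difference of mean log2 intensity, without minus with a wild-type allele, for each gene (points, red past the threshold) of the Cfap role groups above the line and of the other axoneme lists below it, with the median of each as a black bar. The medians of Cfap central apparatus genes (0.45) and axonemal dyneins (0.42) are the highest of the lists drawn.

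Promoter sequences are given because RFX factors bind the X-box and CREM the cAMP response element (CRE), both known from ciliary and spermatid genes. RefSeq windows of 300 bases, 250 before and 50 after the gene start, were matched for 25 of the 31 genes (28 windows, build GRCm38.p6), 7 of them among the 9 genes past the threshold. No window was matched for Cfap53, Cfap54, Cfap65, Cfap97, Cfap157 and Cfap299. On both strands, 4 motifs were searched: the CRE TGACGTCA, its shorter form TGACG, the X-box, and its shorter form GTTGCC, where the short forms also match inside the long ones. The 5 windows below hold the 2 X-box matches (Cfap298, Cfap20dc), 2 genes that rose (Cfap300, Cfap46) and 1 that fell (Cfap97d1), read 5′ to 3′ on the gene's strand, with any motif match in capitals.
Cfap298, chr16:90934800-90935099 (minus strand): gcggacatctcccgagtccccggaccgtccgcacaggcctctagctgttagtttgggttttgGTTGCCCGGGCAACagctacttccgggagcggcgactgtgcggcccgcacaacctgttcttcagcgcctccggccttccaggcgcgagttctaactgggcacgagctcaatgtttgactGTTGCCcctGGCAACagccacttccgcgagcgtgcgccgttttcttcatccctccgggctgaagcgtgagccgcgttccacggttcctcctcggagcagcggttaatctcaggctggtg
Cfap20dc, chr14:8666241-8666540 (minus strand): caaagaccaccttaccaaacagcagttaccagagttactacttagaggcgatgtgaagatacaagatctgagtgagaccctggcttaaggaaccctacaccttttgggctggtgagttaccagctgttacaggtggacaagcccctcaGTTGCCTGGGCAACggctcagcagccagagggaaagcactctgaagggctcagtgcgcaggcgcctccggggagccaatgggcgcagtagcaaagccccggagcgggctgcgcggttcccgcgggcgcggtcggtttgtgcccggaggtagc
Cfap300, chr9:8042826-8043125 (minus strand): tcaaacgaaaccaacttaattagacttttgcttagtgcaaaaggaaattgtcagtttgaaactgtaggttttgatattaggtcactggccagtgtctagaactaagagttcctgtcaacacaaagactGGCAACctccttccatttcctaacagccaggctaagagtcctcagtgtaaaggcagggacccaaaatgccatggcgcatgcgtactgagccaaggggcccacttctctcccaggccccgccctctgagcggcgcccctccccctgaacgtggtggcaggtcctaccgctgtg
Cfap46, chr7:139683766-139684065 (minus strand): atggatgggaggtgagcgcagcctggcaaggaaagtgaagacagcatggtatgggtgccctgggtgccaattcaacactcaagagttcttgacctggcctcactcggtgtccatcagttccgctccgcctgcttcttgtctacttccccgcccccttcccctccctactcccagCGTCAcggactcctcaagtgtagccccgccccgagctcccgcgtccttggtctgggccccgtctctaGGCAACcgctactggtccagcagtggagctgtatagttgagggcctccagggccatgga
Cfap97d1, chr11:101986806-101987105 (plus strand): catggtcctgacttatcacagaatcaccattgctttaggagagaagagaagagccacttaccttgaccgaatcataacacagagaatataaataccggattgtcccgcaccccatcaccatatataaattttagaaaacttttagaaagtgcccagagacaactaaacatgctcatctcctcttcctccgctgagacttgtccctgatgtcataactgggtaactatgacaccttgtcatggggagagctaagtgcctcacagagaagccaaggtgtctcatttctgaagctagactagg

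The X-box was in the windows of Cfap20dc and Cfap298, neither of which passed in a comparison, which is 8.0% of the 25 genes, against 0.451% of all 32851 windows of the table. In Cfap298 it begins 188 bases before the gene start, and in Cfap20dc 102 bases before it. GTTGCC was in 10 of 25 genes, or 40.0%, against 12.5% of all windows. Among the genes past the threshold it was in Cfap300 and Cfap46, on the strand opposite the gene, 122 and 9 bases before the start. The full CRE was in 0 of 25 genes, against 1.79% of all windows, and TGACG in 4, Cfap46, Cfap45, Cfap52 and Cfap161, against 20.8% of all windows. The window of Cfap97d1 held none of these motifs. Neither did those of Cfap57, Cfap70, Cfap77 and Cfap126, also past the threshold but not printed, so the printed windows do not stand for all called genes. A gene with several windows counts where any of them holds the motif, and a match is a run of letters, not a shown binding site.

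Gene length was looked at as a further feature that the choice of members did not use. In the RefSeq table the 7 genes that rose in a comparison span 21.2 to 308 kb, with a median of 66.3 kb, and the 2 that fell 5.21 and 13.0 kb. The 22 others span 6.91 to 473 kb, with a median of 58.2 kb. Across the 31 genes, which share the same 8 arrays, gene length and the difference made by lacking a wild-type allele had a Spearman rho of 0.28, given as a description only.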

How the data were processed

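Total RNA of round spermatids was hybridised to 8 Affymetrix arrays, 2 for each of 4 genotypes. Per the labels' protocols, RNA came from pooled gradient fractions. The deposited values are intensities on a linear scale, made with RMA (version not stated) per the submitters' processing notes. Log2 of each deposited intensity was taken. In 8 cells a value over 100 times its row's median was treated as missing, 0 of them in Cfap clusters. Clusters were named through the platform annotation, and a gene was read on its single-symbol cluster of highest mean intensity. Ranking by mean log2 intensity picks another cluster for 8 genes, 0 of them Cfap genes.

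All 7 comparisons came from 1 fit in limma 3.58.1 (R 4.3.3) with 1 mean per genotype, 4 residual degrees of freedom and variances moderated along an intensity trend. P-values are two-sided and were adjusted by Benjamini-Hochberg over 35512 clusters, with a threshold of 0.05. Counts at an unadjusted p under 0.05, in members and in lists, stand without the share of all genes at that level. SE is limma's moderated standard error. The script was tested on simulated data. Alternatives covered the samples fitted, a replicate block, array weights, the trend, the cluster chosen, dim clusters, a pseudocount, centring, the missing cells and each array left out.

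The members, the gene lists and the tests were chosen with earlier results of these data known. Values per array were given for members past the threshold in a comparison and for the 3 highest and 3 lowest by mean intensity. From the other axoneme lists, up to 3 genes past the threshold with the smallest p were named. Tctex1d1, Foxj1, Rfx2, Crem and the markers Tssk1, Tssk2 and Spata16 were named outside that rule. Array values of Cfap74 and of further clusters of Cfap43 and Cfap46 were also given outside it. Sequences and gene spans are from RefSeq (GRCm38.p6); searches used Python 3.11.15 and pandas 2.3.3. Same-numbered replicates were checked for pairing: their deviations correlated with r between -0.26 and 0.30, over 0.1 in 2 of 6 pairs of genotypes, so the numbers were not taken to pair samples.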

Additional observations from a re-analysis of the deposited data

Results flagged for a closer look

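Cfap65 and Cfap77 were flagged because lacking the wild-type allele went with opposite directions beside the null and the knock-in allele. Arrays did not overlap beside either allele. The same pattern was present in 8.65% of all genes and 13.9% of those at least as bright as the dimmest Cfap gene, against 2 of 31 Cfap genes (6.45%). For Cfap65 the difference was 0.97 on the log2 scale for MIWI -/- against MIWI +/- and -0.27 for MIWI -/KI against MIWI +/KI, a difference of differences of -1.24 (adjusted p = 0.108 by limma). For Cfap77 the values were 0.96 and -0.39, a difference of differences of -1.35 (adjusted p = 0.115). Neither passed the threshold among all clusters. Both passed without MIWI -/- replicate 1 (1.21% of all genes passed) and when clusters under the median intensity were left out (1.5% of the genes kept). No cause was tested.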

How the results depend on the processing

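For the 9 called genes, the effect of lacking a wild-type allele was recomputed under each alternative: 139 values kept direction and side of the threshold, 22 then missed the threshold, 1 newly passed it and 0 reversed. Counts of called Cfap genes moved more. Leaving out 1 array gave 2 to 11 for MIWI -/- against MIWI +/- (9 with all arrays), 0 to 12 for MIWI -/KI against MIWI +/- (7), 0 to 3 for MIWI -/KI against MIWI +/KI (1), 2 to 12 between arrays lacking and carrying a wild-type allele (7), and 0 to 2 for the difference of differences (0). It gave 0 every time for MIWI +/KI against MIWI +/-, and likewise for MIWI -/KI against MIWI -/-. In these fits a lone array is assumed to vary like the other groups. When the fit held only the groups compared, which leaves fewer degrees of freedom, the counts were 4 in MIWI -/-, 1 in MIWI -/KI and 6 in MIWI +/KI, each against MIWI +/-. There were 0 in MIWI -/KI against MIWI +/KI. With array weights they were 3 in MIWI -/KI and 7 in MIWI +/KI, each against MIWI +/-, with 0 for MIWI -/KI against MIWI +/KI. That last count was also 0 with the replicate block and with each array centred on its median. It was 0 too with a term, added after seeing the data, for the arrays set apart on the second principal component. That component (25.8% of variance) had scores of 17.5 and 18.9 in MIWI +/KI and -33.6 and -23.3 in MIWI +/-. Replicates differed in MIWI -/- (-2.8 and 40.9) and in MIWI -/KI (18.0 and -35.7). The component thus parted MIWI +/KI from MIWI +/-, and its part in differences between those genotypes was not tested. For the 2 comparisons that use all 8 arrays, fitting only the groups compared is the same fit and was not run apart. The replicate block moved no other count by over 1.5 times. With clusters over the median intensity alone, 2 members passed for MIWI +/KI against MIWI +/- (1.04% of the genes kept) and 3 for the difference of differences (1.5%). Centring gave 3 rises and 2 falls in MIWI -/KI against MIWI +/-, beside 5 and 2. Except where fewer samples or genes were fitted, the cause was not tested. With 2 arrays a genotype, the median SE of a Cfap gene's difference was 0.17 on the log2 scale, which limits what can be detected.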
